A study of Saccharomyces cerevisiae with 24 samples.

Results

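Genes of the pheromone response and of mating were followed in Saccharomyces cerevisiae BY4730, a haploid strain of the a mating type known as deleted for LEU2, MET17 and URA3. The set comprised FUS3, STE12, KAR4, AGA1, AGA2, FUS1, FUS2, PRM1, PRM2 and FIG1, 10 of the 5656 genes with a probe set of their own on the array. A probe set is a group of short probes for 1 transcript, and each gene was represented by its brightest probe set over all arrays. All 10 members passed the filter on dim genes, as did 5171 genes in all. The data were 24 one-colour Affymetrix S98 arrays of cells exposed for 120 min, with 11 control arrays. Bleomycin, which breaks DNA strands, was used on 3 arrays, at 0.15, 0.1 and 0.15 U/ml for replicates 1, 2 and 3. Methyl methanesulfonate (MMS), which methylates DNA, was used on 3 arrays at 0.12, 0.12 and 0.14%. Cisplatin, which crosslinks DNA, was used on 2 arrays at 500 and 650 ug. NaCl was used on 3 arrays at 10, 8 and 9%, and ethanol on 2 arrays at 15%. These doses are those of the sample titles, and the protocol text gives others for cisplatin and NaCl. Control cells received the solvent DMSO or medium alone, and the labels do not say which control array was which. No pheromone treatment is among the labelled groups, and nothing in the labels says whether arrays of a group came from separate cultures, so the p-values measure the spread between these arrays, which may be technical.

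As background, a haploid a cell secretes a-factor and senses the alpha-factor of the opposite mating type through a receptor coupled to a heterotrimeric G protein. The signal passes along a cascade of protein kinases to the mitogen-activated protein kinase Fus3, which relieves repression of the transcription factor Ste12. Ste12 then activates genes for agglutination, cell-cycle arrest, polarised growth, cell fusion and nuclear fusion. Several kinases of this cascade also serve the osmotic stress and filamentous growth pathways of the same cell.

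The means of the 7 a-cell genes over the 11 control arrays ran from 4.65 for ASG7 to 12.3 ± 0.402 (SD, n = 11) on the log2 scale for the a-factor precursor gene MFA1, with the alpha-factor receptor gene STE2 at 7.45 ± 1.07. Of the alpha-cell genes, the a-factor receptor gene STE3 averaged 3.75 and MF(ALPHA)2 4.21, whereas MF(ALPHA)1 averaged 5.18 and the alpha-agglutinin gene SAG1 6.18. Of the genes named as deleted, URA3 averaged 3.43 and MET17 3.89 on the control arrays, but LEU2 averaged 5.68 there, in the range of the array medians, and 6.54 with NaCl, which goes against the named deletion, and the source of this signal was not tested. No gene is listed at 0, and the deposited table gives no detection calls, so a low signal cannot be separated from background here. The array medians lay between 5.33 and 5.63. The arrays fell into separate groups by a control probe set at the 5′ end of the actin transcript ACT1, which was under 7.5 on 6 of the 11 control arrays and above it on 5. The control probe set at the 3′ end of ACT1 was under 10 on 3 arrays, NaCl replicates 2 and 3 and control replicate 11. The 2 ends did not always move together. Cisplatin replicate 1 differed from its same-day control by -5.38 at the 5′ end and -0.25 at the 3′ end. NaCl replicate 2 differed by -3.93 and -3.69. These signals can follow the state of the RNA or the level of ACT1, which was not tested.

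The mating genes that passed the test were counted for each agent. With ethanol, 4 of the 10 members rose, FUS1, AGA2, KAR4 and AGA1, and 0 fell, where 3.83% of all genes tested rose and 1.18% fell. With NaCl, 6 members rose, PRM2, FIG1, FUS2, AGA1, PRM1 and AGA2, and 0 fell, where 14.1% of all genes rose and 37.6% fell. With MMS, 4 members rose, FUS3, KAR4, FUS1 and AGA1, and PRM2 fell, where 33.5% of all genes rose and 17% fell, so the share of members that rose was near that of all genes. With bleomycin and with cisplatin, 0 members passed the limma test at an adjusted p under 0.05, where 1.45% of all genes rose and 0.406% fell with bleomycin, and 0.329% rose and 0.135% fell with cisplatin. At an unadjusted p under 0.05, limma gave 2 members with bleomycin and 1 with cisplatin. The smallest adjusted p of a member was 0.0957 with bleomycin and 0.325 with cisplatin.

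The median log2 fold change of the 10 members was 0.53 with ethanol, against 0.14 over all genes tested. It was 1.00 with NaCl, against -0.45 over all genes, and 0.78 with MMS, against 0.29. The members' median with NaCl depended on how arrays were scaled, as given below. With bleomycin the members' median was -0.30 and that of all genes -0.08, and with cisplatin these were -0.18 and -0.07. In these bulk samples, a change in the RNA of each cell and a change in the share of cells that express a gene cannot be told apart.

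**Figure D1:**
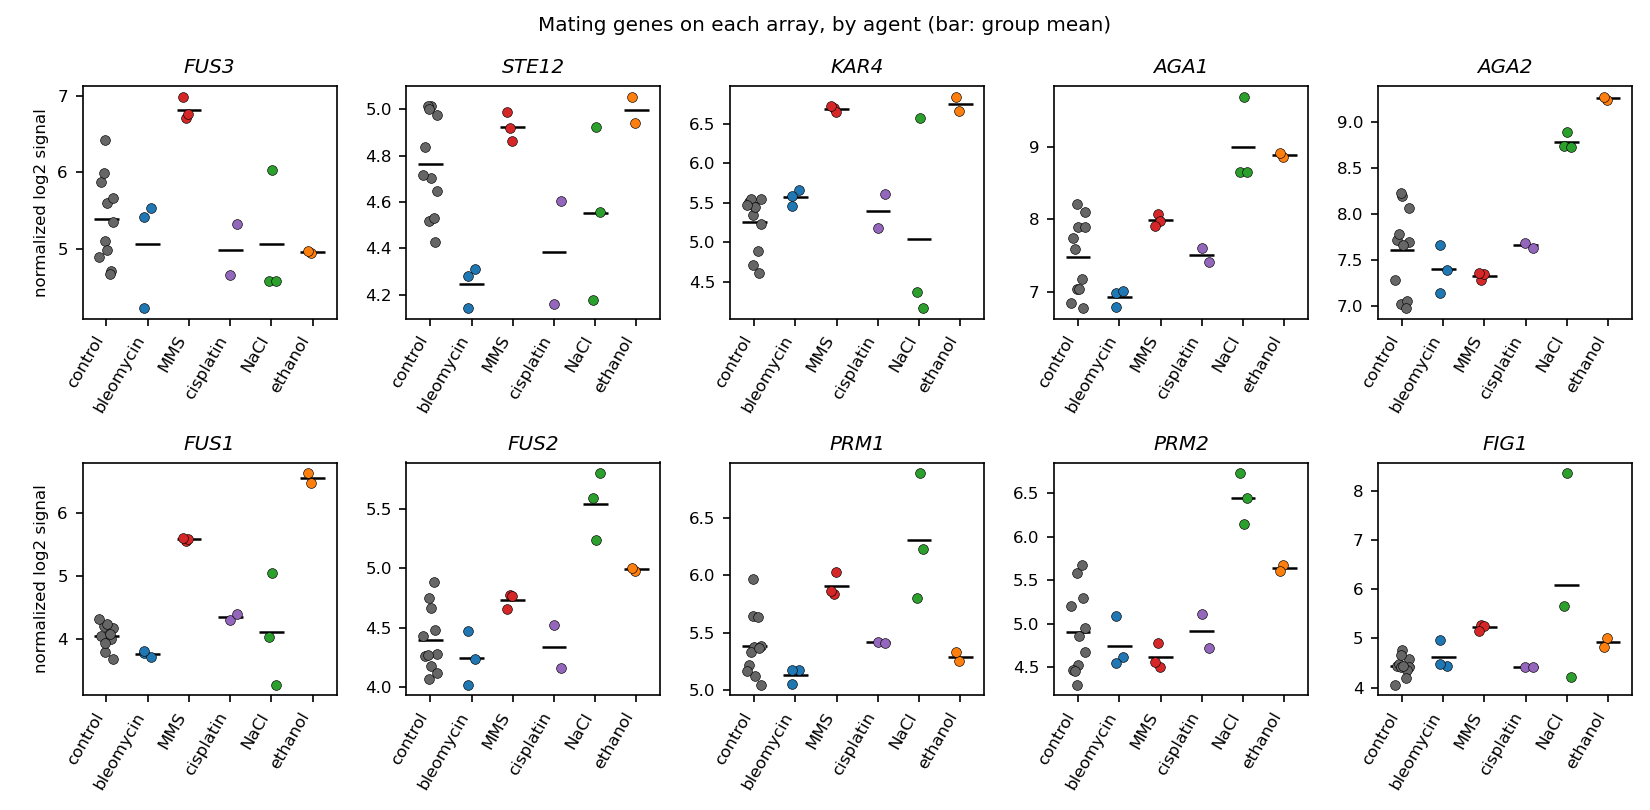
Normalized log2 signal (vertical axes) of the 10 mating genes on each of the 24 arrays, grouped by agent along the horizontal axes, with 1 point per array and a bar at the group mean. The ethanol arrays lie above all 11 control arrays for FUS1, AGA1, AGA2, KAR4, FUS2 and FIG1. The NaCl arrays do so for AGA1, AGA2, FUS2 and PRM2. The share of all genes with such separation was not counted.

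FUS3 (YBL016W) encodes the mating MAP kinase. Its signal was 6.71, 6.77 and 7.00 on the 3 MMS arrays and 4.88, 4.66 and 4.98 on their same-day control arrays, while the 11 control arrays ran from 4.66 through a median of 5.35 to 6.43. All 3 MMS arrays thus lay above every control array. How common such separation was among all genes was not counted, for FUS3 or for the members below. FUS3 rose 3.96-fold with MMS, a log2 fold change of 1.98 ± 0.40 (SE) with an adjusted p of 0.00166 from limma. The array carries 3 probe sets for FUS3, and they disagree on the size and sign of this difference. The same-day differences of the chosen one lay between 1.83 and 2.11, those of another averaged 0.43 and ran from -0.36 to 0.91, and those of the dimmest averaged -0.89. With the mean of all 3 probe sets the log2 fold change with MMS was 0.51 ± 0.172, adjusted p 0.0277. On the NaCl arrays FUS3 stood at 6.03, 4.58 and 4.58, above its same-day control for replicate 1 and below it for replicates 2 and 3, and the fit gave -0.55 with an adjusted p of 0.249.

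STE12 (YHR084W), the transcription factor at the end of the cascade, passed the test with none of the 5 agents. Its signals with bleomycin were 4.28, 4.31 and 4.14, all below the lowest of the control arrays, which ran from 4.43 to 5.01. The log2 fold change was -0.68 ± 0.177 with an adjusted p of 0.0957. With ethanol STE12 read 4.94 and 5.05 against 4.52 and 4.43 on the same days, a fitted difference of 0.52 with an adjusted p of 0.190. These were small differences on a dim probe set.

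KAR4 (YCL055W) encodes a partner of Ste12 that is needed for the genes of nuclear fusion. It read 6.67 and 6.85 with ethanol against 4.71 and 4.61 on the same-day control arrays, and 6.70, 6.65 and 6.73 with MMS against 5.47, 4.90 and 5.44. The highest control array stood at 5.55, so neither group overlapped the controls. KAR4 rose 4.28-fold with ethanol (log2 fold change 2.10 ± 0.490, adjusted p 0.0333) and 2.68-fold with MMS (1.42 ± 0.40, adjusted p 0.0111). With NaCl the 3 arrays disagreed, at 6.58 for replicate 1 and 4.37 and 4.16 for replicates 2 and 3, against 5.55, 5.23 and 5.51 on the same days. The fitted difference with NaCl was -0.39 with an adjusted p of 0.410.

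The agglutinin genes AGA1 (YNR044W), for the anchor subunit of the a-agglutinin on the cell wall, and AGA2 (YGL032C), for its binding subunit, were higher with both ethanol and NaCl. With ethanol AGA2 read 9.24 and 9.28 against 7.02 and 7.06 on the same-day control arrays, and with NaCl 8.89, 8.75 and 8.73 against 8.07, 7.70 and 7.72. On this normalized scale the 11 control arrays ran from 6.98 through 7.70 to 8.23, below every array of either group. AGA2 rose 4.66-fold with ethanol (log2 fold change 2.22 ± 0.284, adjusted p 0.00283) and 1.88-fold with NaCl (0.91 ± 0.224, adjusted p 0.00787). With MMS its fitted difference was 0.02 and its 3 arrays, at 7.28, 7.35 and 7.37, lay within the range of the controls.

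AGA1 read 8.86 and 8.91 with ethanol against 7.04 and 6.78 on the same days, and 9.69, 8.65 and 8.65 with NaCl against 7.89, 8.10 and 7.75. On this normalized scale all 5 of these arrays exceeded the highest control array, at 8.21. AGA1 rose 3.93-fold with ethanol (log2 fold change 1.97 ± 0.333, adjusted p 0.00978) and 2.16-fold with NaCl (1.11 ± 0.263, adjusted p 0.00685). With MMS it rose 1.95-fold (0.96 ± 0.272, adjusted p 0.0114), yet its MMS arrays, at 8.07, 7.98 and 7.91, lay within the range of the control arrays. With bleomycin AGA1 read 6.99, 7.01 and 6.80, each below its same-day control, and the log2 fold change of -0.97 ± 0.258 did not pass the test, with an adjusted p of 0.101.

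The NaCl values of the agglutinin genes depended on how arrays were scaled to each other. With median scaling in place of quantile normalization the log2 fold change with NaCl was 0.41 for AGA1 (adjusted p 0.381) and 0.17 for AGA2 (adjusted p 0.641). With the values as deposited it was 0.59 for AGA1 and 0.34 for AGA2. NaCl replicates 2 and 3 then read 7.96 and 7.98 for AGA1, below the highest control array at 8.46. For AGA2 they read 8.04 and 8.05, below the highest control array at 8.49. The separation of the NaCl arrays from all controls was thus absent on the deposited scale. Median scaling moved the median of all genes with NaCl from -0.45 to -0.48, and the deposited values gave -0.31. The median of the 10 members with NaCl moved from 1.00 to 0.43 with median scaling, and the deposited values gave 0.60. The mean of the 4 alpha-cell genes was also higher on the NaCl arrays, at 5.15 to 5.25 against 4.54 to 4.98 on the control arrays, with 0 of these 4 genes passing the limma test and 2 at an unadjusted p under 0.05. The fitted differences with NaCl were 0.33 for STE3, 0.47 for MF(ALPHA)2, 0.50 for SAG1 and -0.07 for MF(ALPHA)1. Their part in the NaCl results was not tested.

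FUS1 (YCL027W), a membrane protein gene for cell fusion whose promoter is widely used as a reporter of the pathway, had the largest fitted rise of a member with any agent. It read 6.48 and 6.64 with ethanol against 3.80 and 4.00 on the same-day control arrays. With MMS it read 5.56, 5.59 and 5.61 against 4.32, 4.08 and 4.24. The 11 control arrays lay between 3.69 and 4.32 with a median of 4.06, so both groups were clear of them. FUS1 rose 6.30-fold with ethanol (log2 fold change 2.66 ± 0.318, adjusted p 0.00201) and 2.59-fold with MMS (1.37 ± 0.260, adjusted p 0.00107). With NaCl it read 5.04, 4.04 and 3.28 on the normalized scale, above, within and below the control arrays, and the fit gave 0.15 with an adjusted p of 0.631. This result depended on how arrays were scaled. With the values as deposited the log2 fold change was 0.62 ± 0.182 and passed the limma test (adjusted p 0.0153). With median scaling it was 0.44 (adjusted p 0.0848). On the deposited scale NaCl replicate 2 read 4.56, above the highest control array at 4.41, and replicate 3 lay within the range of the controls.

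In order of mean signal on the normalized scale, FUS1 stood at 6.56 with ethanol, 5.59 with MMS, 4.35 with cisplatin, 4.12 with NaCl, 4.05 in the control arrays and 3.77 with bleomycin. The difference between MMS and ethanol, each taken against its own same-day controls, was -1.28 ± 0.411 with an adjusted p of 0.0341. That between MMS and cisplatin was 1.15 ± 0.399 with an adjusted p of 0.0408. The other neighbours in this order overlapped or did not pass the test.

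FUS2 (YMR232W), a gene for a cytoplasmic protein of cell fusion, rose with NaCl. It read 5.24, 5.59 and 5.80 with NaCl, against 4.28, 4.11 and 4.26 on the same days and a highest control value of 4.88. FUS2 rose 2.43-fold (log2 fold change 1.28 ± 0.182, adjusted p 0.000822). With ethanol its arrays, at 4.97 and 5.0, also exceeded every control array, while the fitted difference of 0.37 did not pass the test (adjusted p 0.346).

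PRM2 (YIL037C), a gene for a pheromone-regulated membrane protein, had the smallest adjusted p of any member with NaCl. It read 6.15, 6.73 and 6.44 with NaCl against 4.95, 4.67 and 4.47 on the same days, and the highest control array stood at 5.68. PRM2 rose 3.37-fold (log2 fold change 1.75 ± 0.227, adjusted p 0.00057). With MMS it read 4.78, 4.50 and 4.56 against 5.20, 5.68 and 4.86, a fall of 1.55-fold (log2 fold change -0.64 ± 0.235, adjusted p 0.0401) whose arrays lay within the range of the controls.

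PRM1 (YNL279W), a gene for a protein of plasma membrane fusion between mating cells, read 6.89, 5.80 and 6.23 with NaCl against 5.05, 5.38 and 5.22 on the same days. Of these 3 arrays, 2 exceeded the highest control array, at 5.97. PRM1 rose 2.13-fold with NaCl (log2 fold change 1.09 ± 0.246, adjusted p 0.00574). With MMS the difference was 0.60 with an adjusted p of 0.0662.

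FIG1 (YBR040W), a gene for a membrane protein that acts in calcium influx during mating, differed most among the NaCl arrays. It read 8.36 at 10% NaCl, 5.66 at 8% and 4.21 at 9%, against 4.57, 4.43 and 4.44 on the same days. The value at 9% lay below its control and the other two lay above all 11 control arrays, whose highest was 4.76. The fit gave a 3.07-fold rise (log2 fold change 1.62 ± 0.504, adjusted p 0.0203), which rested on replicate 1: without it the log2 fold change was 0.60 and the call was lost. With MMS FIG1 read 5.28, 5.25 and 5.15 against 4.06, 4.19 and 4.43, above every control array, with a log2 fold change of 1.00 ± 0.521 that did not pass the test (adjusted p 0.130). With ethanol it read 5.02 and 4.83 against 4.42 and 4.36, also above every control array, and the fitted 0.53 did not pass the test (adjusted p 0.646).

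**Figure D2:**
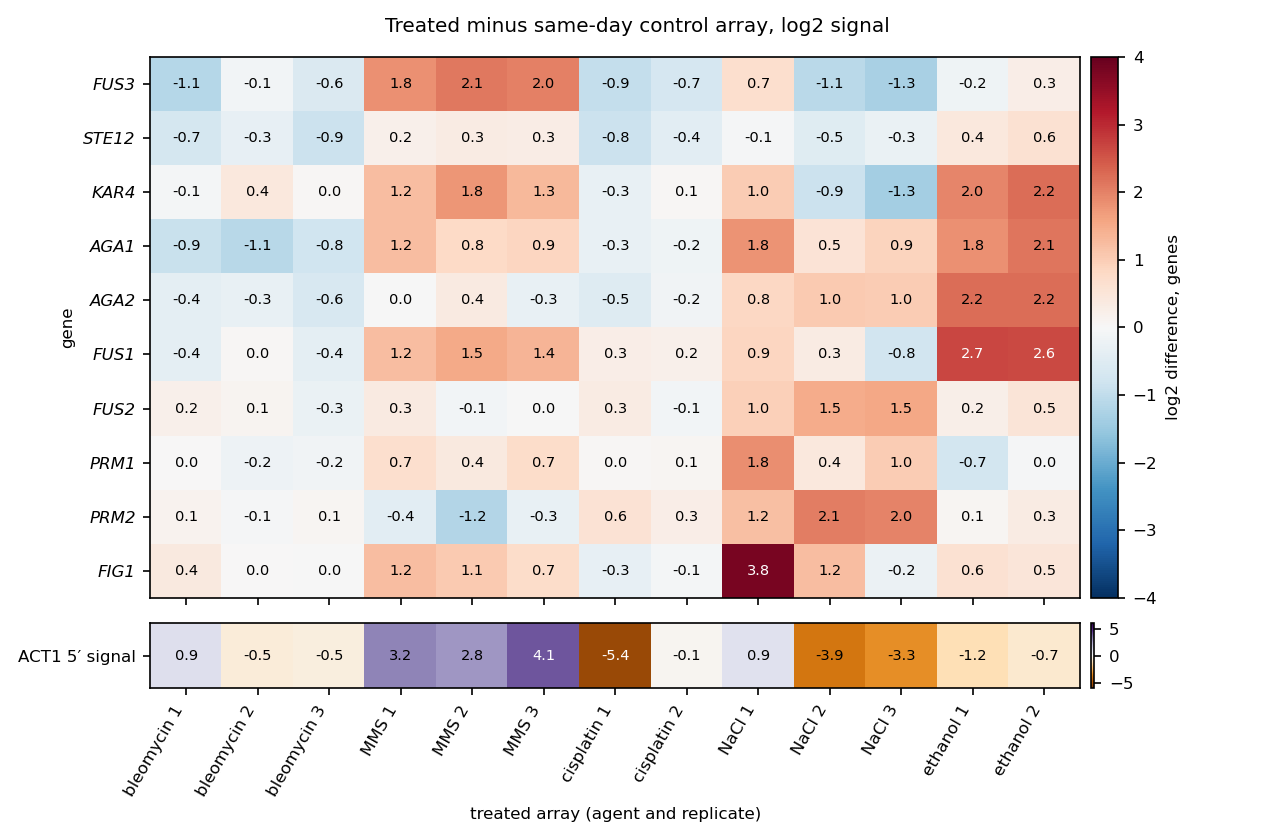
Difference in normalized log2 signal between each of the 13 treated arrays (columns) and its same-day control array, for the 10 mating genes (rows), with the value printed in each cell and the same difference of the ACT1 5′ signal in the row beneath, from -5.38 for cisplatin replicate 1 to 4.07 for MMS replicate 3. FIG1 with NaCl replicate 1 has the largest difference, 3.78, and the 2 ethanol columns agree in sign for every member except FUS3.

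**Figure D3:**
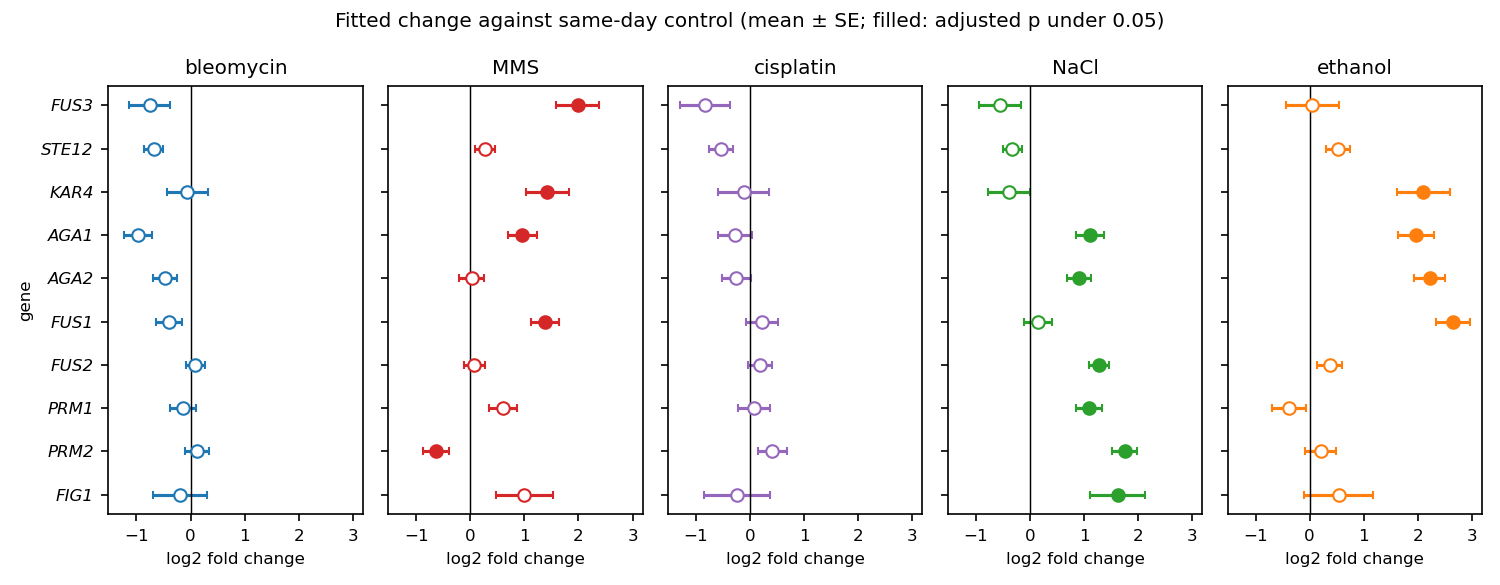
Fitted log2 fold change of each mating gene against control (points) with its SE (bars), by agent, and filled points at an adjusted p under 0.05. Members that passed the test with ethanol are FUS1, AGA2, KAR4 and AGA1, and no member passed it with bleomycin or cisplatin.

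Calls with ethanol, where both ethanol arrays and their same-day controls were under 7.5 in the ACT1 5′ signal, depended on single arrays, while the fold changes moved little. Each fit without 1 of the 4 arrays left a single same-day pair, assumed to vary like the other groups. Over these fits the log2 fold change lay between 2.64 and 2.69 for FUS1, at 2.22 for AGA2, between 1.96 and 2.25 for KAR4 and between 1.81 and 2.14 for AGA1. Without control replicate 7 or ethanol replicate 2, limma called 0 members, 4 having an unadjusted p under 0.05, and the adjusted p rose as far as 0.110 for AGA2 and 0.0865 for FUS1. Without control replicate 6 or ethanol replicate 1, FUS1 and AGA2 remained called. KAR4 and AGA1 lost their calls without each of these 4 arrays. The title of ethanol replicate 1 gives another year than that of its control, and treating it as a day of its own left FUS1 at 2.64 (adjusted p 0.0206) and AGA2 at 2.22 (adjusted p 0.0281) among the calls.

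The ACT1 5′ signal moved with MMS. It was higher on the MMS arrays than on their same-day controls by 3.21, 2.82 and 4.07, and all 3 MMS arrays were above 7.5 while all 3 controls were below it. Among the control arrays alone, FUS3 averaged 5.91 ± 0.330 (SD, n = 5) above that limit and 4.95 ± 0.254 (n = 6) below it, AGA1 averaged 7.91 and 7.13, and PRM2 averaged 4.48 and 5.26. FUS1 averaged 3.99 and 4.10 on these control arrays, a difference within their SD. With the class of ACT1 5′ signal in place of the day, the log2 fold change with MMS was 1.57 for FUS1, 1.28 for KAR4 and 0.91 for FUS3, which kept their calls, and 0.22 for AGA1 with an adjusted p of 0.553. PRM2 with MMS turned to 0.08 (adjusted p 0.762) in that fit, and with the ACT1 5′ signal as a covariate beside the day 0 of the 10 members passed the limma test with MMS, FUS1 at 1.04 having an adjusted p of 0.0568, while 2 members had an unadjusted p under 0.05 and 17.5% of all genes rose. Leaving out control replicate 10, control replicate 11, MMS replicate 1 or MMS replicate 2 left 3 members called. FUS1 and FUS3 kept their calls in all 6 such fits. Leaving out an MMS array or its same-day control removes the same pair from the comparison, so these 6 fits are not separate checks. AGA1 was no longer called without MMS replicate 1 or its control replicate 10, nor KAR4 without MMS replicate 2 or its control replicate 11, nor PRM2 without any of these 4 arrays. What the ACT1 5′ signal follows, RNA state or the level of ACT1, was not tested.

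**Figure D4:**
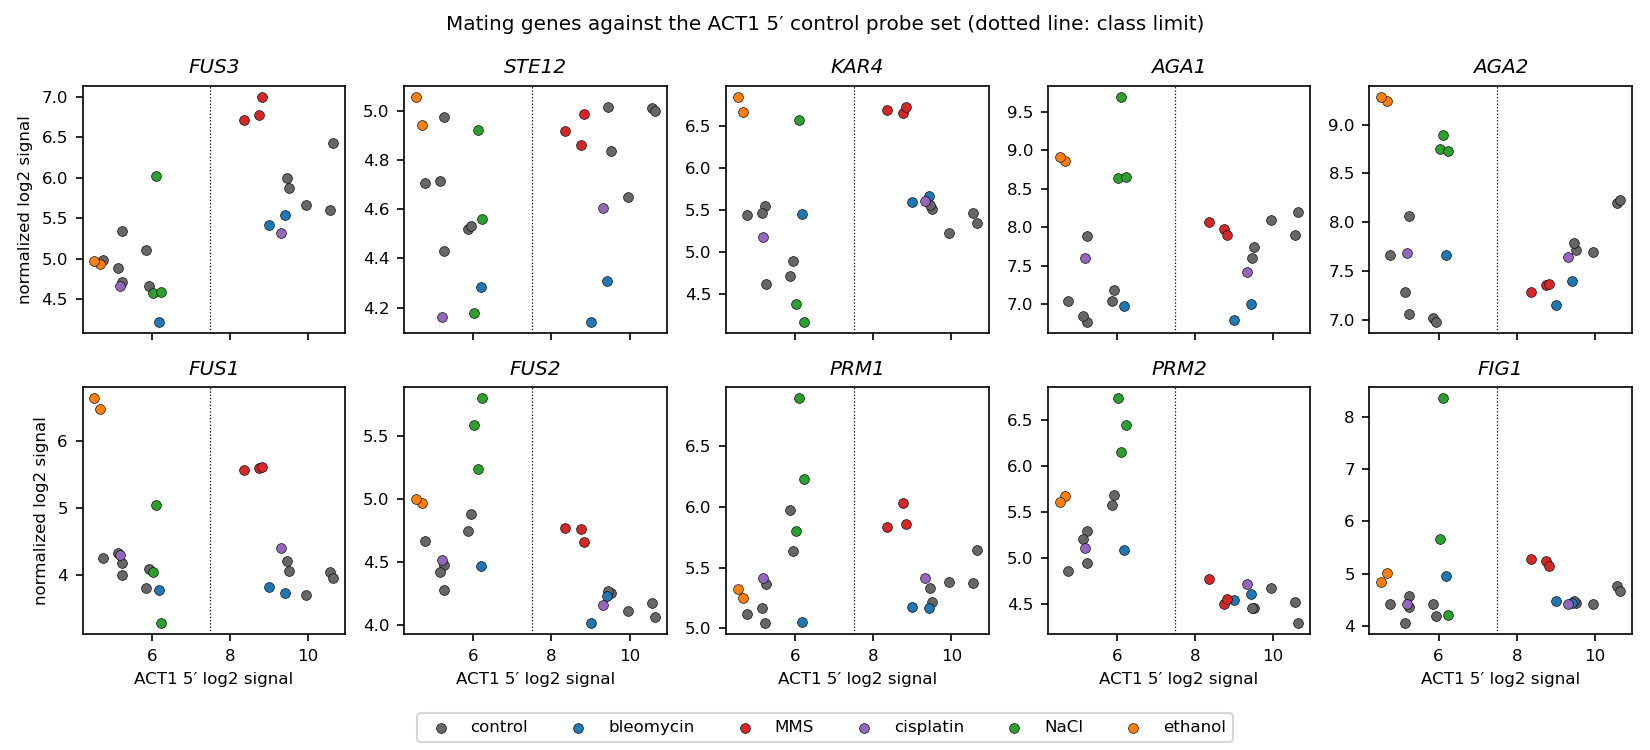
Normalized log2 signal of each mating gene (vertical axes) against the log2 signal of the ACT1 5′ control probe set (horizontal axes) on the 24 arrays, coloured by agent, with a dotted line at the limit of 7.5. MMS arrays lie to the right of the line and their same-day controls to the left, and FUS1 on the ethanol and MMS arrays is above every control array on either side.

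With NaCl, replicates 2 and 3 had ACT1 3′ signals of 7.98 and 8.21, against 11.7 and 11.9 on the same-day control arrays, and ACT1 5′ differences from these controls of -3.93 and -3.29 on the log2 scale. Replicate 1 differed by 0.87 at the 5′ end. NaCl replicates 2 and 3 and control replicate 11, the arrays of low ACT1 3′ signal, were then set aside. This left the NaCl result to replicate 1 alone, which was assumed to vary like the other groups. In that fit FIG1 stood at 3.76, and FUS3 at 0.96 and KAR4 at 1.16 were opposite in sign to the fit of all 3 arrays. Without replicate 1, 8 members were called, of which FUS3 at -1.32, KAR4 at -1.17 and STE12 at -0.48 were lower. The share of all genes called without replicate 1 was not counted. AGA1, FUS2, PRM1 and PRM2 kept their calls in each of the 6 fits without 1 array. AGA2 lost its call without control replicate 3 or NaCl replicate 3 (adjusted p up to 0.0539), and FIG1 without control replicate 2, control replicate 4, NaCl replicate 1 or NaCl replicate 2. Fitting only the NaCl and control arrays left 0 members called by limma, with 3 at an unadjusted p under 0.05 and adjusted p-values of 0.0912 for FUS2 and PRM2. The part of what the ACT1 signals follow in these differences was not tested.

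Differences between agents were taken as contrasts within the same fit, over 10 pairs of agents, and several agents share control arrays. MMS and ethanol arrays shared no day with any other agent. In differences that involve MMS or ethanol, agent and period therefore cannot be told apart. Of the 100 member-by-pair differences, 40 passed the test, where 24.8% of those of all genes did over the same 10 pairs. NaCl and ethanol differed in 7 members, where 36% of all genes did. STE12, KAR4, AGA2 and FUS1 were lower with NaCl than with ethanol, with log2 differences of -2.50 ± 0.406 for FUS1 (adjusted p 0.0084) and -2.49 ± 0.624 for KAR4 (adjusted p 0.0186). Both differences are on the normalized scale, and the FUS1 value with NaCl depended on the scaling. FUS2, PRM1 and PRM2 were higher with NaCl, by 1.55 ± 0.367 for PRM2 (adjusted p 0.0169). On the normalized scale AGA1 rose with both, and its difference between them was -0.86 with a 95% confidence interval from -1.79 to 0.06 (adjusted p 0.115). The NaCl values of AGA1 and AGA2, here and in the contrasts below, also depended on the scaling.

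Bleomycin differed from ethanol in 4 members, all lower with bleomycin, where 5.84% of all genes differed. The largest such difference was FUS1, at -3.05 ± 0.403 (adjusted p 0.00245), followed by AGA1 at -2.94 and AGA2 at -2.69. Cisplatin differed from ethanol in 3 members, AGA1, AGA2 and FUS1, where 1.86% of genes differed. Between bleomycin and cisplatin 0 members passed the limma test, and 0 did at an unadjusted p under 0.05, where 0.135% of all genes differed. For FUS1 the difference of bleomycin minus cisplatin was -0.62 with a 95% confidence interval from -1.37 to 0.13, and for AGA1 it was -0.69 with an interval from -1.48 to 0.09. Bleomycin and NaCl differed in 6 members, all lower with bleomycin, where 32.7% of genes differed, and cisplatin and NaCl in 2, FUS2 and PRM2, where 6.56% did.

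MMS differed from bleomycin in 4 members, FUS3, STE12, AGA1 and FUS1, all higher with MMS, where 36.3% of all genes differed. It differed from cisplatin in 5 members, where 36.1% did, and from NaCl in 6, where 62.5% did. FUS3, KAR4 and FUS1 were higher with MMS than with NaCl, and AGA2, FUS2 and PRM2 were lower, with a log2 difference of -2.39 ± 0.327 for PRM2 (adjusted p 0.000119). MMS and ethanol differed in 3 members, where 30.5% of all genes did, with FUS3 higher with MMS by 1.94 ± 0.633 (adjusted p 0.0369) and AGA2 lower, at -2.20 ± 0.366 (adjusted p 0.00114).

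When bleomycin, MMS and cisplatin were averaged and set against the average of NaCl and ethanol, 5 members were lower and 0 higher, where 7.35% of all genes were lower and 17.7% higher. AGA2 differed by -1.80 ± 0.218 (adjusted p 0.000273), AGA1 by -1.64 ± 0.256 (adjusted p 0.00105), PRM2 by -1.01, FUS1 by -1.0 and FUS2 by -0.71. FUS1 and AGA1 also rose with MMS, a damaging agent, so this contrast does not describe each agent alone. It also holds the NaCl values of AGA1, AGA2 and FUS1, which depended on the scaling.

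The other genes of the pathway were taken from a list of 48, of which 46 were tested and the remaining KSS1 and PRM6 were too dim. With MMS 17 of the 46 rose and 3 fell, beside 33.5% and 17% of all genes. With NaCl 12 rose and 8 fell, beside 14.1% and 37.6% of all genes. With ethanol 3 rose and 0 fell, beside 3.83% and 1.18%, and with bleomycin 0 rose and 1 fell, beside 1.45% and 0.406%. With cisplatin 0 passed the limma test and 2 had an unadjusted p under 0.05, where 0.329% of all genes rose and 0.135% fell. The medians of these 46 genes were 0.57 with MMS, 0.00 with NaCl and 0.20 with ethanol, against 0.29, -0.45 and 0.14 over all genes.

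Of the 13 genes for pheromone, receptor, G protein and their regulators, GPA1, the G protein alpha subunit gene, rose with ethanol (log2 fold change 2.00 ± 0.283, adjusted p 0.00401). MFA1 rose with NaCl (1.37 ± 0.309, adjusted p 0.00576) and kept that call without each array in turn and without the 3 arrays of low ACT1 3′ signal (1.79). The call was lost with median scaling, at 0.77 (adjusted p 0.0546), and within the arrays of low ACT1 5′ signal, at 0.83 (adjusted p 0.169). With MMS the methyltransferase gene STE14 rose (1.99 ± 0.266), STE2 rose (1.56 ± 0.593) and the G protein gamma subunit gene STE18 fell (-1.48 ± 0.420). In the fit by ACT1 5′ class these became 0.54, -0.12 and 0.10, and none kept its call. STE2 also lost its call with MMS without each of the 6 arrays concerned, and STE18 without control replicate 11 or MMS replicate 2. STE14 fell with NaCl (-1.06 ± 0.257) and AXL1, for a protease of a-factor maturation, rose (0.60 ± 0.185), and both lost their calls when the 3 arrays were set aside.

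Among 14 tested genes of the kinase cascade and polarity, the kinase gene STE11 had the largest change of any pathway gene, 3.79 ± 0.185 with MMS (adjusted p 1.22e-07), and the kinase gene STE7 rose by 1.99 ± 0.276. In the fit by ACT1 5′ class they stood at 2.64 and 1.53 and remained called. CDC42, the polarity GTPase gene, rose with MMS (2.03 ± 0.788, adjusted p 0.0493) and fell with NaCl (-2.12 ± 0.763, adjusted p 0.0361), and its value was 0.02 with MMS in the class fit and 0.22 with NaCl without the 3 arrays. Its call with MMS was also lost without MMS replicates 1 or 2 or their controls, and with NaCl without NaCl replicates 2 or 3 or their controls. FAR1, the gene of the cell-cycle arrest factor, fell with bleomycin (-1.65 ± 0.346, adjusted p 0.0316), which stood at -0.91 (adjusted p 0.364) in the class fit, and with NaCl (-1.52 ± 0.353), where setting aside the 3 arrays left -0.21. The bleomycin value was -1.60 without the 3 arrays, -1.75 within the high ACT1 5′ class and 0.06 within the low class. With cisplatin FAR1 stood at -1.69 ± 0.425, which did not pass the limma test (adjusted p 0.142). DIG2, for a repressor of Ste12, rose with NaCl (1.33 ± 0.349) but stood at 0.25 without the 3 arrays. BEM1, a polarity scaffold gene, rose with ethanol (1.49 ± 0.283, adjusted p 0.0156).

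Among 19 tested target genes, the pheromone-regulated PRM5 rose with MMS (2.22 ± 0.251), as did the polarity gene GIC2 (2.00 ± 0.242) and the microtubule-binding gene BIK1 (1.12 ± 0.270), and all 3 were called in the class fit too, at 2.59, 1.31 and 0.61. BIK1 was not called with the ACT1 5′ signal as a covariate (0.69, adjusted p 0.193), nor without MMS replicate 2 or its control replicate 11. With NaCl the pheromone-regulated PRM10 rose (1.93 ± 0.295), as did the kinesin gene KAR3 (1.21 ± 0.227) and KAR9 (1.16 ± 0.293), which takes part in nuclear positioning. Of these, PRM10 kept its call without the 3 arrays, at 1.72, KAR3 did not, at 0.61, and KAR9 was not tested there. KAR9, DIG2, FAR1 and STE14 also lost their NaCl calls without control replicate 3, NaCl replicate 2 or NaCl replicate 3, and AXL1 without these or control replicate 4. Of the 6 fits that each left out 1 array, the FAR1 call with bleomycin was kept in that without control replicate 2, while its value lay between -1.86 and -1.30 in all 6. PRM7 rose with ethanol (1.68 ± 0.376, adjusted p 0.0297), but not without any one of the 4 arrays concerned. GPA1 and BEM1 lost their calls without control replicate 7 or ethanol replicate 2, with values from 1.96 to 2.05 for GPA1 and from 1.13 to 1.87 for BEM1 over the 4 fits.

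**Figure D5:**
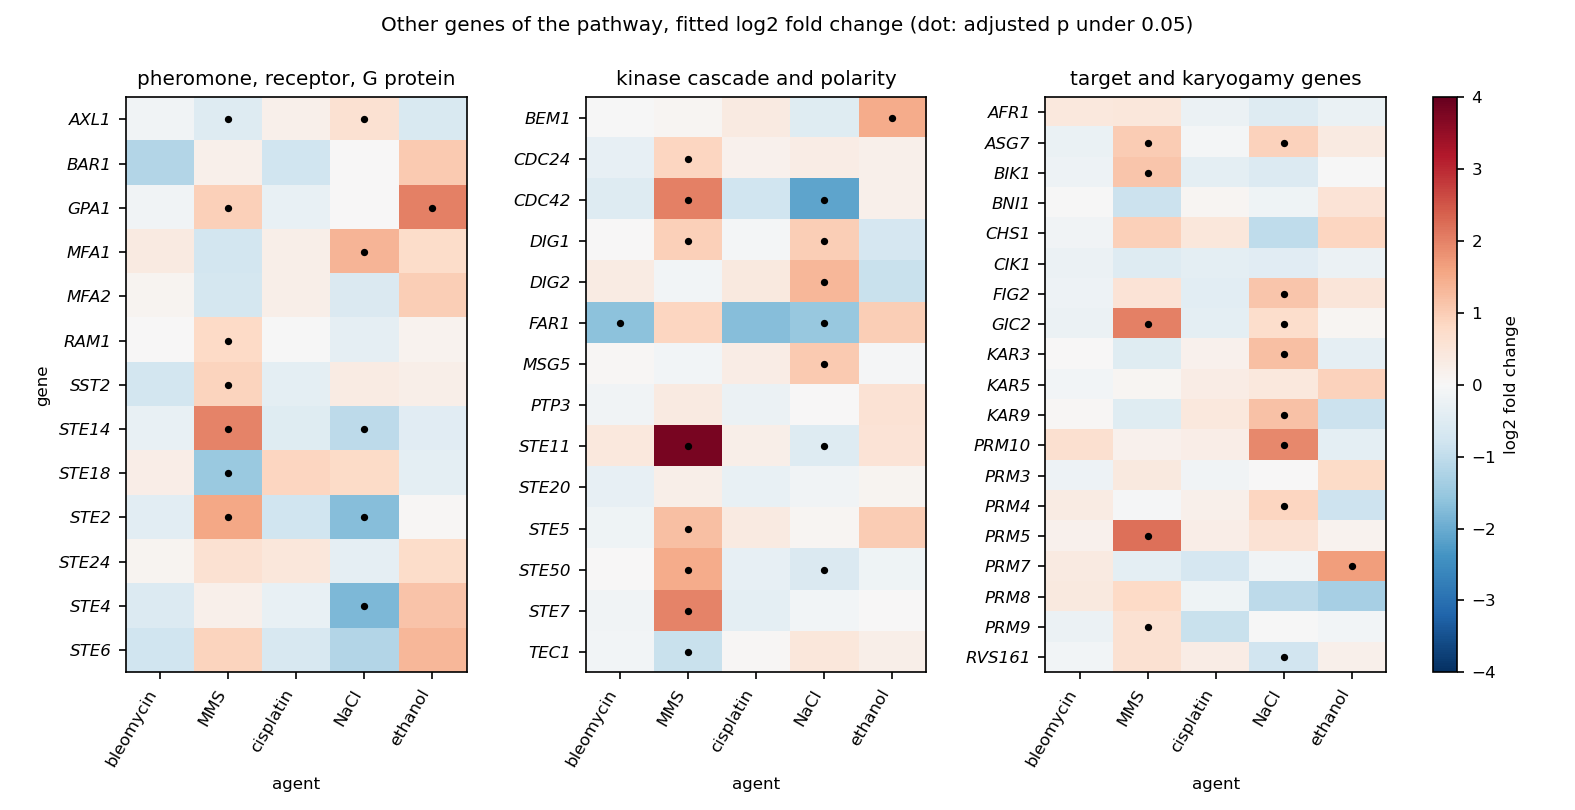
Fitted log2 fold change against control of the 46 tested genes of the pathway outside the 10 members (rows), by agent (columns), in 3 panels by role, with a dot at an adjusted p under 0.05. MMS has 17 dots at higher and 3 at lower values, NaCl 12 and 8, ethanol 3 at higher values, bleomycin 1, at FAR1, and cisplatin 0.

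Genes outside the set were ranked by how alike their 13 same-day differences were to those of the members. Those most like the mean of the members were BAR1, the protease gene that degrades alpha-factor, with a Pearson correlation of 0.95, SQT1 at 0.92, TPK3 and ILV5 at 0.89, and GAP1 at 0.88. Those most like FUS1 were RSC4 at 0.96, the pheromone-regulated PRM3 at 0.95, NOP12 and MEP3 at 0.94 and CRR1 at 0.93. These are descriptions over 13 differences, which share control arrays on 3 days, and they were picked as the highest of all genes tested. Among the members themselves, KAR4 and FUS1 had a correlation of 0.90 and FUS2 and PRM2 0.89, while KAR4 and PRM2 had -0.67.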

How the data were processed

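The deposited values were signals on the log2 scale, per the file headers and their range of 1.42 to 14.4, and their summary method is not given in the sources used here. Per the labels' protocols, total RNA was extracted with hot phenol, poly(A)+ RNA was selected, and cRNA was made from cDNA primed with oligo(dT). Of 9335 probe sets, 6504 had 1 gene in the given probe table. Arrays were quantile-normalized with limma 3.58.1 in R 4.3.3. Genes with a mean above the pooled 20th percentile (3.79) were tested, 5171 in all.

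limma's lmFit was run on the 24 arrays together, with a term for each of the 5 agents and a fixed block for the day in the titles (8 residual degrees of freedom), followed by eBayes with an intensity trend. Genes passed the test where the p-value, adjusted by Benjamini-Hochberg across all genes tested, was under 0.05. Fold changes are fitted within days. The pairing of a treated and a control array comes from the titles' days. Whether such arrays deviate together was checked on 13 pairs, and the correlation was above 0.1 in 6 of them and below -0.1 in 5. Control replicate 8 shared its day with no treated array, so it adds nothing to the fitted fold changes. The day of ethanol replicate 1 was assumed to be that of control replicate 6. Correlations among control arrays ran from 0.722 to 0.997, and no columns were duplicates. Each agent rests on 2 or 3 arrays, which limits the precision.

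The members, the gene lists and the alternatives were chosen with earlier results of these data known. All members are described. Of the other pathway genes, up to 3 called genes per agent and role with the same sign on every day are named, the largest first. The like genes are the 5 with the highest correlation. The steps were tested on simulated data. Python 3.11.15 with matplotlib 3.10.9 drew the figures. No sequences are shown.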

Additional observations from a re-analysis of the deposited data

How the results depend on the processing

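Over the alternatives, 831 of the members' fold changes kept their direction and their side of the threshold, 58 lost a call, 31 gained one, 85 changed sign without a call and 5 reversed. Those 5 were AGA2 with MMS at -0.63 within the arrays of high ACT1 5′ signal, PRM2 with MMS at 0.076 with the ACT1 5′ class in place of the day and at 0.14 within the high class, and FUS3 and KAR4 with NaCl at 0.96 and 1.16 without the 3 arrays of low ACT1 3′ signal. The fits within a class were added after the data were seen.

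The 40 differences called between agents became 24 with a filter at the 40th percentile, which keeps 6 members and so tests fewer differences. They became 22 with ethanol replicate 1 as a day of its own and 24 with the ACT1 5′ signal as a covariate. They ranged from 21 to 59 without 1 array. The share of all genes that differed between agents was not counted in these fits. The 0 members called with bleomycin by limma became 1 each with median scaling, values as deposited and the ACT1 5′ class. Of all genes, 2.08% rose and 0.734% fell, 2.34% and 0.812%, and 4.18% and 0.832% in these fits. The count became 3 without the 3 arrays of low ACT1 3′ signal, where 5.83% of all genes rose and 5.09% fell. It became 3 within the high class, where 11.2% rose and 8.42% fell. With only bleomycin and control arrays it became 2, and the share of all genes was not counted. With cisplatin 1 was called without the 3 arrays, where 7.01% of all genes rose and 13% fell. Without 1 array, the calls stayed at 0 for bleomycin and for cisplatin and ranged from 0 to 2 for ethanol, 3 to 5 for MMS and 5 to 8 for NaCl. The 4 calls with ethanol became 2 with its replicate 1 as a day of its own. They also became 2 within the low class, where 0.793% of all genes rose and 0.445% fell. The 5 calls with MMS became 0 with the covariate. The 6 with NaCl became 0 with only NaCl and control arrays. Fits of this kind have fewer residual degrees of freedom, and they gave 6 calls with MMS, 4 with ethanol, 2 with bleomycin and 0 with cisplatin. The share of all genes in them was not counted. With no replicate block for the day, MMS had 4 calls, with AGA1 at 0.50 (adjusted p 0.176) and PRM2 at -0.30 (adjusted p 0.351) lost and PRM1 at 0.52 (adjusted p 0.0314) gained. Apart from the limits described with each result, the cause was not tested. Dim genes near the filter are measured least well.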
